A study of Homo sapiens with 6 samples.

Results

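Small nucleolar RNAs (snoRNAs) were followed in PRO-seq libraries of the human small cell lung cancer line SBC-3. The members are the features with the biotype snoRNA and a normalised read count of at least 10 in at least 2 of the 6 libraries. They numbered 153 of 407 snoRNA features and of 21773 features tested in all. By symbol, 74 were SNORD (box C/D), 66 were SNORA (box H/ACA), 1 was SCARNA12, and 12 carried only a clone name. The 3 groups were wild-type SBC-3 given the control siRNA siCtrl, and SBC-3 knocked down for SFPQ with either siSFPQ-2 or siSFPQ-3. Each siRNA was used at 10 nM, cells were permeabilised after 72 h, and each group had 2 libraries. SFPQ, a paraspeckle protein, binds both RNA and DNA, and the series asks how it acts on RNA processing during transcription. Whether the replicates are separate cultures is not stated in the labels; p-values then measure only the variation among these libraries, which may be technical. All groups share the 1 cell line and siRNA transfection.

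PRO-seq labels RNA at engaged RNA polymerases, so a value here is meant to reflect nascent RNA mapped to a snoRNA gene and does not measure mature snoRNA. Whether mature snoRNA also contributed reads was not tested and cannot be told from these values. Box C/D snoRNAs guide ribose methylation of ribosomal RNA, and box H/ACA snoRNAs guide pseudouridylation; a few, such as U3 and U8, are needed for cleavage of the ribosomal RNA precursor instead. Most human snoRNAs lie in introns of host genes, often genes of the translation machinery or non-coding small nucleolar RNA host genes (SNHG), and are trimmed out of the spliced intron. A small set, including U3, U8 and U13, has promoters of its own, of the kind used by small nuclear RNA genes. Reads inside an intronic snoRNA therefore include polymerases that transcribe the host.

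Whole reads could be recovered from 100% of the deposited values within a tolerance of 0.1 reads, and the 6 libraries held between 12072813 and 18475158 reads. One read was worth between 0.797 and 1.11 normalised reads. The SFPQ gene itself measured 2294 and 2435 normalised reads after siCtrl, 1825 and 1972 after siSFPQ-2, and 1922 and 2466 after siSFPQ-3 (log2 fold change -0.22, SE 0.11, limma adjusted p = 0.14). An siRNA acts on the mRNA, so nascent reads at SFPQ do not check the knockdown. Of 10 neuroendocrine small cell lung cancer markers 5 were tested, with INSM1, CHGA, NCAM1 and STMN2 among those not tested; 7 of 7 markers of the other small cell states were tested. Of the tested neuroendocrine markers 2 were higher and 1 lower, and of the tested markers of other small cell states 4 were higher and 2 lower. Of 5 tested epithelial markers 3 were higher and 1 lower, and of 5 tested fibroblast markers 3 were higher and none lower. Over all tested features 24.8% were higher and 23.2% lower. The epithelial sums were 1117 to 1216 against 3102 to 4156 (siCtrl against siSFPQ libraries). The fibroblast sums were 1361 to 1398 against 2820 to 3954. The immune sums were 800 to 803 against 560 to 838 and the endothelial sums 38.3 to 48.7 against 88.2 to 145, with PTPRC, CD3E, PECAM1 and VWF not among the tested features. The part of these markers in the snoRNA results was not tested.

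Most snoRNA features were thinly covered. Their median level was 16.6 normalised reads against 287 for all tested features, and 135 of 153 members had a mean under 50. Only 79 members reached 10 in every library. The 254 snoRNA features left out had means of at most 9.52. The filter was not neutral: 20 members passed with no siCtrl library at 10 or above, and 1 passed with no siSFPQ library there, so counts over the members describe the tested set and are no support for a direction. The median standard error of a member's log2 fold change was 0.35, against 0.14 over all features. Per kilobase of the RefSeq span the median density was 190 normalised reads for SNORD members, whose median length was 80 bases, and 125 for SNORA members, whose median length was 134 bases.

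The snoRNA features with the most reads were mostly lower after SFPQ knockdown, and the features that were higher were all thinly covered ones. Against siCtrl, with both siRNAs pooled, 9 members were higher and 14 lower (limma, Benjamini-Hochberg adjusted p under 0.05 over all features). These are 5.88% and 9.15% of the members, where 24.8% of all tested features were higher and 23.2% lower, so fewer snoRNA features were called than features at large. In all 23 the siSFPQ and siCtrl values did not overlap. Over all 153 members 23 had every siSFPQ library above both siCtrl libraries and 22 had every one below, or 15.0% and 14.4%, where 30.3% and 31% of all features did. Of the 18 members with a mean of at least 50, 11 were lower and none higher, while 25.7% of all features at that level were lower and 26.3% higher. These 11 are not independent, since 4 are copies of U3, and 2 others, SNORD60 and AC009065.10, had nearly the same value in every library. Below a mean of 50, 9 of 135 members were higher and 3 lower, with 19% and 13.1% for all features. At that level the smallest change called was 0.75 on the log2 scale. Requiring a mean of at least 10 over all 6 libraries in place of the filter left 126 members, of which 6 were higher and 13 lower. That alternative was added after the data were seen, and the share of all features called under it is not given here. The 23 called members were 13 SNORD, 8 SNORA and 2 clone-named features. The authors' deposited table calls 2 members higher and 13 lower, where it calls 21.6% and 18.4% of the same features.

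**Figure D1:**
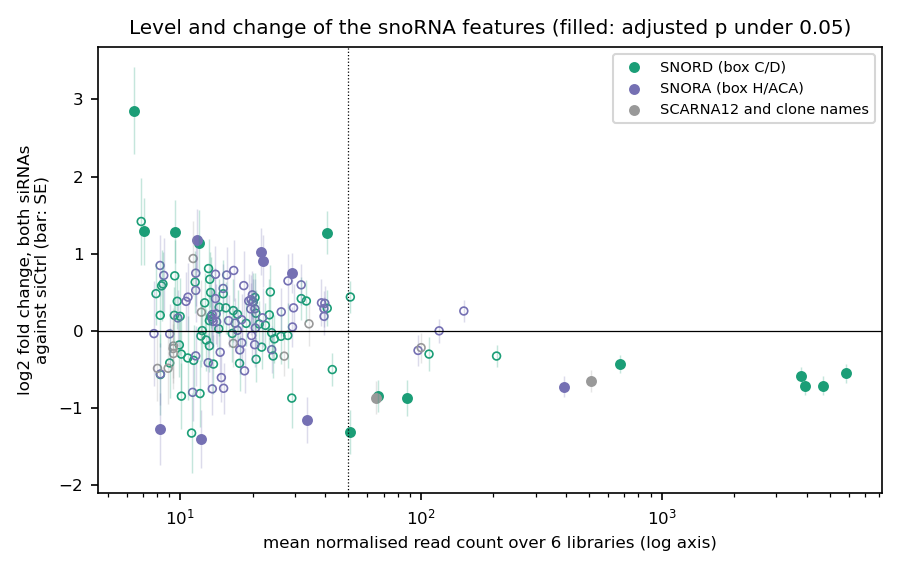
Each point is 1 of the 153 snoRNA features, with its mean normalised read count over 6 libraries (log axis) and its log2 fold change, both siRNAs against siCtrl, with the standard error as a bar; filled points have an adjusted p under 0.05 and the dotted line marks a mean of 50. To the right of the line 11 filled points lie below 0 and none above; to the left 9 lie above and 3 below.

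The U3 genes carried most of the snoRNA signal. U3 is a box C/D RNA that pairs with the ribosomal RNA precursor and is required for its early cleavages. Its 4 features, SNORD3A, SNORD3B-1, SNORD3B-2 and SNORD3C, lie within 128 kb on chromosome 17 (GRCh38, chr17:19061912-19190245), are each 217 bases long and lie in no tested host. Together they held 81.3% of the summed snoRNA reads in both siCtrl libraries and 75.4% to 78.4% in the siSFPQ libraries. SNORD3A (chr17:19188016-19188232) measured 7499 and 7252 normalised reads after siCtrl, 4655 and 4393 after siSFPQ-2, and 6437 and 4898 after siSFPQ-3. All siSFPQ libraries lay below both controls, and siSFPQ-3 replicate 1 was nearest to them. The log2 fold change was -0.55 (SE 0.13, limma adjusted p = 0.0050). Without siCtrl replicate 1 the adjusted p of SNORD3A was 0.053.

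In the other 3 U3 copies too, both siCtrl libraries were highest and siSFPQ-3 replicate 1 came next. SNORD3B-1 measured 6269 and 6252 after siCtrl, 3526 and 3446 after siSFPQ-2, and 4852 and 3679 after siSFPQ-3, a mean of 6261 ± 11.8 (SD, n = 2) against 3876 ± 658 (SD, n = 4) and a log2 fold change of -0.71 (SE 0.12, limma adjusted p = 0.00094). SNORD3B-2 fell by 0.71 (SE 0.12) and SNORD3C by 0.58 (SE 0.11) on the log2 scale, with limma adjusted p = 0.0010 and 0.0015. Neither call nor that of SNORD3B-1 was lost in any alternative. The copies are near-identical in sequence and the sources used here do not give how reads that fit several copies were assigned, so the split between copies is uncertain and the 4 values are not 4 independent measurements. Their sum, which does not depend on the split between these copies, was 23901 and 23577 after siCtrl, 14054 and 13523 after siSFPQ-2, and 19484 and 14949 after siSFPQ-3.

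U8, the product of SNORD118 (chr17:8173452-8173588), acts in processing of the large-subunit ribosomal RNAs. It measured 931 and 705 after siCtrl, 627 and 572 after siSFPQ-2, and 601 and 612 after siSFPQ-3. The groups did not overlap, but the 2 siCtrl libraries differed by more than the lower of them differed from the siSFPQ libraries. The log2 fold change was -0.43 (SE 0.12, limma adjusted p = 0.014), and without siCtrl replicate 1 it was -0.22 with an adjusted p of 0.24. The fit with no trend also ended the call (adjusted p of 0.060). SNORD118 lies inside the RefSeq span of TMEM107 (chr17:8172457-8176380), and its value was 67.4% of that of the TMEM107 feature, which fell by a like amount (log2 fold change -0.39, SE 0.11, limma adjusted p = 0.012). The sources used here do not say whether reads in a snoRNA also count for its host feature, so the 2 values may share reads. SNORD13, or U13, which guides acetylation of the small-subunit ribosomal RNA, measured 124 and 120 after siCtrl, 106 and 77.5 after siSFPQ-2, and 139 and 83.0 after siSFPQ-3. Its groups overlapped (log2 fold change -0.30, SE 0.22, limma adjusted p = 0.29).

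**Figure D2:**
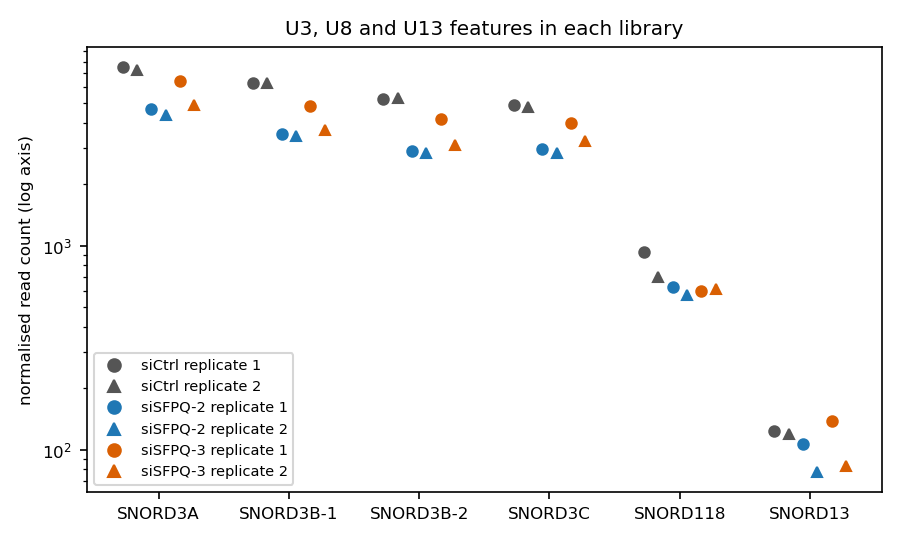
Normalised read count (log axis) of the U3 features SNORD3A, SNORD3B-1, SNORD3B-2 and SNORD3C, of U8 (SNORD118) and of U13 (SNORD13) in each of the 6 libraries; colour gives the siRNA and marker shape the replicate. The siCtrl points lie above all siSFPQ points except at SNORD13, where siSFPQ-3 replicate 1 is the highest at 139.

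One clone-named feature stood next in read count. AC011195.1 (ENST00000390893), which has no RefSeq match here and so no position, measured 662 and 664 after siCtrl, 416 and 348 after siSFPQ-2, and 563 and 392 after siSFPQ-3. Its log2 fold change was -0.65 (SE 0.14, limma adjusted p = 0.0041), and siSFPQ-3 replicate 1 again lay nearest to the controls. Without siCtrl replicate 2 its adjusted p was 0.051.

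Several snoRNAs close to the start of a short host gene were also lower. SNORA57 (chr11:62665422-62665570), a box H/ACA RNA, begins 110 bases after the nearest listed start of CSKMT, a gene for a mitochondrial methyltransferase. It measured 508 and 551 after siCtrl, 373 and 311 after siSFPQ-2, and 267 and 342 after siSFPQ-3. Every siSFPQ library lay below both controls and siSFPQ-3 replicate 1 was here the lowest (log2 fold change -0.72, SE 0.13, limma adjusted p = 0.0014). CSKMT had a log2 fold change of -0.35 (SE 0.15, limma adjusted p = 0.073). The change of the SNORA57 to CSKMT ratio did not pass (-0.36, SE 0.17, limma adjusted p = 0.22).

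SNORD25 (chr11:62855565-62855631), a box C/D RNA 254 bases into SNHG1, measured 86.1 and 80.9 after siCtrl, 49.9 and 24.4 after siSFPQ-2, and 33.3 and 29.4 after siSFPQ-3. All siSFPQ libraries were lower, and the log2 fold change of -1.31 (SE 0.28, limma adjusted p = 0.0035) was larger in size than that of SNHG1 (-0.48, SE 0.09, limma adjusted p = 0.0017). The change of the SNORD25 to SNHG1 ratio did not pass (-0.83, SE 0.30, limma adjusted p = 0.14). SNORD60 (chr16:2155023-2155105), 253 bases into SNHG19, measured 89.3 and 98.6 after siCtrl, 48.1 and 44.3 after siSFPQ-2, and 69.9 and 48.6 after siSFPQ-3 (log2 fold change -0.84, SE 0.21, limma adjusted p = 0.0078). Its host SNHG19 fell by 0.54 (SE 0.09, limma adjusted p = 0.00093). AC009065.10 followed SNORD60 within 3.08% in every library and may be a second row of the same reads. Without siCtrl replicate 2 SNORD60 had an adjusted p of 0.084. The calls of SNORA57 and SNORD25 were kept in all alternatives that tested them.

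Among the 105 members with a listed host start upstream of them, the 6 that begin within 400 bases had a median density of 649 normalised reads per kilobase, against 162 for the 15 at 400 to 1000 bases and 136 for the 84 farther in. Of these 6, 3 were lower and none higher, beside 23.2% and 24.8% of all tested features. The other members of that group were SNORD12C in ZFAS1, SNORD48 in SNHG32 and SNORA7A in RPL32, which did not pass. SNORA7A lies 0 bases from a listed RPL32 start that falls inside the RPL32 span, and its density of 147 was the lowest of the 6. These distance classes were chosen after the values were seen and were not tested. Engaged polymerases are known to collect just downstream of starts, which is background and not a result of these values.

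**Figure D3:**
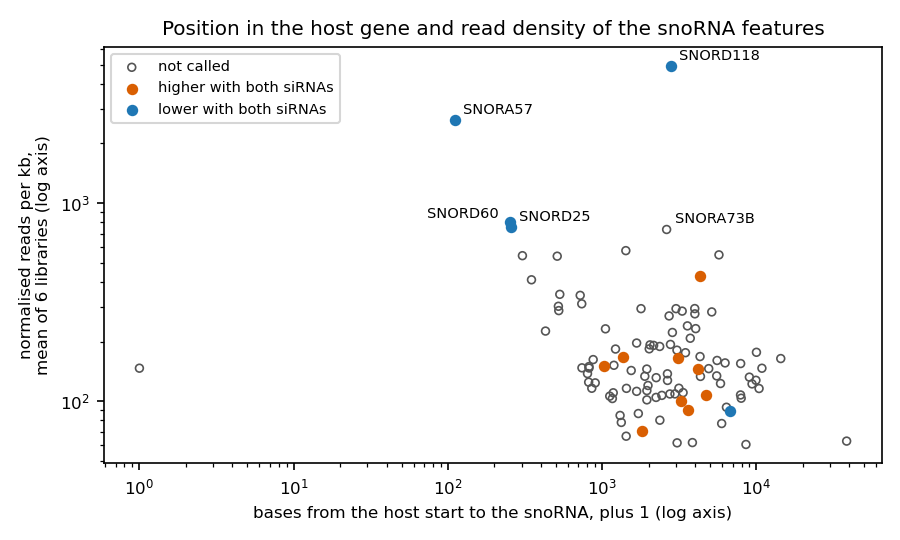
Bases from the nearest listed upstream start of the host gene to the snoRNA (plus 1, log axis) against normalised reads per kilobase of the snoRNA, mean of 6 libraries (log axis), for 105 members; colour marks the members called higher or lower with both siRNAs. SNORA57, SNORD60 and SNORD25, all lower, stand at the upper left within 400 bases, SNORD118 at the top is 2792 bases from the TMEM107 start, and the members called higher all lie beyond 1000 bases.

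The host starts are shown for 4 non-coding hosts because results below turn on them: SNHG1 fell with SNORD25 and SNHG19 with SNORD60, while SNHG4 and SNHG12 did not pass and hold snoRNAs that rose against them. Genes of the translation machinery often begin transcripts with a C followed by a run of pyrimidines. Each line gives 50 bases before and 40 bases from the start, read 5′ to 3′ on the gene's strand from RefSeq promoters (GRCh38.p14), with the C or T run at the start in capitals.
SNHG1 (chr11:62855846-62855935, minus strand): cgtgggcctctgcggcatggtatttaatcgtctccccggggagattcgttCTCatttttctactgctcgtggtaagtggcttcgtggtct
SNHG19 (chr16:2155319-2155408, minus strand): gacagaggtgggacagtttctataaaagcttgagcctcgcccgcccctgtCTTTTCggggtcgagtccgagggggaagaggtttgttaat
SNHG4 (chr5:139274051-139274140, plus strand): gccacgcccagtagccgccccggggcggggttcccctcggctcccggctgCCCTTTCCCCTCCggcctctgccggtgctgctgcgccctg
SNHG12 (chr1:28581834-28581923, minus strand): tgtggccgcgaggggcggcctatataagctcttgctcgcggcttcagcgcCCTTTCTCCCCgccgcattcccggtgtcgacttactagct
The runs are 3, 6, 13 and 11 bases long. A start with C and at least 5 pyrimidines in all was listed for 27 of the 54 hosts with a RefSeq promoter (50%) and for 5.14% of the 27305 genes with one, on the gene's own strand. Of 17 ribosomal protein hosts 13 had such a start, and of the other 37 hosts 14 had one. The 54 members in hosts with such a start had a median log2 fold change of 0.21, with 7 higher and 2 lower. The 51 in hosts without one had 0.12, with 2 higher and 3 lower. Of the called rises 4 (SNORA31, SNORD73A, SNORD45B and SNORD14B) passed the filter only through siSFPQ libraries. The counts of rises are therefore no support for a direction. Over all tested features 24.8% were higher and 23.2% lower. The match is a description of these bases and the difference between these groups of members was not tested.

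The remaining called falls were in SNORD55, with a mean of 87.8 normalised reads, and in features with means under 50. SNORD55, a box C/D RNA, measured 119 and 130 after siCtrl, 77.5 and 47.6 after siSFPQ-2, and 91.4 and 61.8 after siSFPQ-3 (log2 fold change -0.87, SE 0.24, limma adjusted p = 0.012). It lost its call without either siCtrl library, with adjusted p of 0.070 and 0.11. SNORA78 in SNHG9 measured 38.3 and 68.7 after siCtrl, 34.8 and 26.6 after siSFPQ-2, and 17.2 and 16.2 after siSFPQ-3. The 2 controls were far apart, and without siCtrl replicate 2 the adjusted p rose from 0.0087 to 0.15. SNHG9 itself fell by 0.73 on the log2 scale (SE 0.16, limma adjusted p = 0.0041). SNORA47, in ZBED3, measured 24.7 and 17.7 in siCtrl against 4.46 to 11.8 in the siSFPQ libraries. SNORA10B measured 11.2 and 16.6 against 3.04 to 8.60. Both lie outside the rule for named features and are named because they were called: their log2 fold changes were -1.39 (SE 0.38, limma adjusted p = 0.011) and -1.26 (SE 0.47, limma adjusted p = 0.045), and both lost the call without siCtrl replicate 1 (adjusted p of 0.12 and 0.098), SNORA10B also without siCtrl replicate 2 (0.27), either siSFPQ-2 library (0.077 and 0.061) and siSFPQ-3 replicate 2 (0.10), with DESeq2 (0.17) and with a pseudocount of 0.1 (0.054).

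SNORD83A was the best covered of the 9 features that rose. It is a box C/D RNA inside RPL3 (chr22:39315213-39315307), which encodes a large-subunit ribosomal protein. The siCtrl libraries held 15.1 and 26.6 normalised reads, siSFPQ-2 held 51.7 and 39.9, and siSFPQ-3 held 61.3 and 49.6. All 4 siSFPQ libraries were above both controls (log2 fold change 1.27, SE 0.28, limma adjusted p = 0.0038), and the call was lost only without siCtrl replicate 1 (adjusted p of 0.063). The neighbouring SNORD83B measured 36.7 and 45.4 in siCtrl and 51.6 to 60.9 in the siSFPQ libraries, which did not pass (log2 fold change 0.44, SE 0.21, limma adjusted p = 0.11). RPL3 rose by 0.32 (SE 0.11, limma adjusted p = 0.030).

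SNORA74A (chr5:139278780-139278979), a box H/ACA RNA of SNHG4, measured 11.2 and 13.3 after siCtrl, 21.4 and 27.7 after siSFPQ-2, and 22.6 and 33.4 after siSFPQ-3. The siSFPQ libraries were all above both controls (log2 fold change 1.03, SE 0.30, limma adjusted p = 0.018). SNORA81 (chr3:186786676-186786852), a box H/ACA RNA of EIF4A2, measured 17.5 and 22.2 after siCtrl, 35.6 and 29.9 after siSFPQ-2, and 35.5 and 34.4 after siSFPQ-3 (log2 fold change 0.75, SE 0.26, limma adjusted p = 0.034). SNORA44 (chr1:28580381-28580512), in SNHG12, measured 17.5 and 9.97 after siCtrl, 18.7 and 28.8 after siSFPQ-2, and 33.3 and 24.3 after siSFPQ-3 (log2 fold change 0.91, SE 0.34, limma adjusted p = 0.046). These 3 calls were lost in 4 to 8 of 16 alternatives each, DESeq2 among them for all 3, and in 3 to 5 of the 6 fits that leave out 1 library. SNORA74A and SNORA81 lost the call without either siCtrl library, and SNORA44 lost it without siCtrl replicate 2. Over the alternatives the log2 fold change of SNORA74A ran from 0.85 to 1.16. That of SNORA81 ran from 0.59 to 0.91 and that of SNORA44 from 0.53 to 1.28.

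SNORD14B (chr11:17075778-17075868) in RPS13 held 1 read over both siCtrl libraries and 38 over the 4 siSFPQ libraries. Scaled by depth this is a ratio of 20.8, with an exact 95% interval from 3.51 to 843 that covers counting error only. Its limma adjusted p was 0.0020. SNORD14B is 1 of 4 called rises, with SNORD73A, SNORD45B and SNORA31, that passed the filter with no siCtrl library at 10 or above, so their rise itself decided that they were tested and the calls are a description. Requiring a mean of at least 10 left SNORA31 alone of these 4 in the test. The remaining called rises, SNORD73A in RPS3A, SNORD45B in RABGGTB, SNORA31 in TPT1 and SNORD1C in SNHG16, had siCtrl means between 2.70 and 6.84 and siSFPQ means between 9.31 and 14.8. Their log2 fold changes were at most 1.29, and each lost its call in at least 4 alternatives, among them the fits without siSFPQ-3 replicate 1 for all of them, with adjusted p of 0.060 to 0.096. Along with SNORD14B, which is also named for its ratio to its host, they fall below the level set for naming and are named because they were called.

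**Figure D4:**
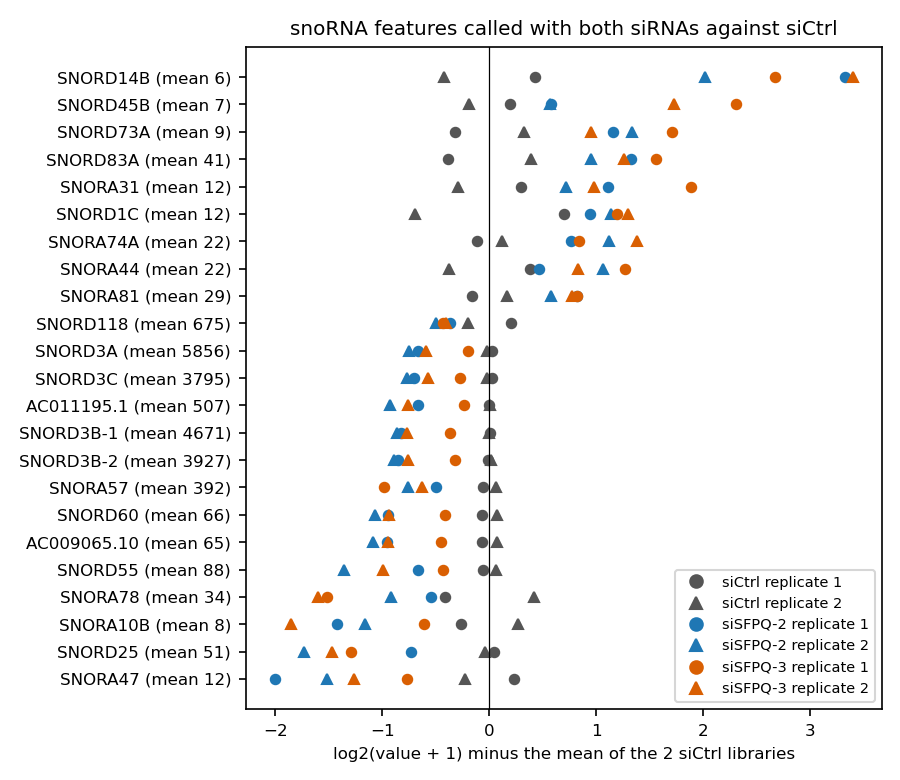
For the 23 snoRNA features called with both siRNAs against siCtrl, each point is 1 library, placed by log2(value + 1) minus the mean of the 2 siCtrl libraries; the mean level is given beside the name. The siSFPQ and siCtrl points do not overlap in any of the 23, and in the U3 rows siSFPQ-3 replicate 1 lies between the controls and the other 3 siSFPQ libraries.

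SNORA81 overlaps a microRNA gene, which matters here because the series concerns microRNA biogenesis. MIR1248 (chr3:186786672-186786777, plus strand) shares 102 of its 106 bases with SNORA81. Its mature product is given from RefSeq (GRCh38.p14), with the seed, bases 2 to 8, in capitals.
hsa-miR-1248 (chr3:186786675-186786701): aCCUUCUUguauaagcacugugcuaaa
The MIR1248 feature measured 12.0 and 14.4 after siCtrl, 22.3 and 18.8 after siSFPQ-2, and 17.2 and 15.2 after siSFPQ-3. All siSFPQ libraries were above both controls, but the change did not pass (log2 fold change 0.44, SE 0.30, limma adjusted p = 0.25). Reads in the shared bases cannot be told apart between the 2 features.

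The snoRNAs were next set against their hosts. Of the members, 132 lay within 71 tested hosts, which included 27 ribosomal protein genes with 49 members and 15 SNHG genes with 32. Of the 71 hosts 26 were lower and 3 higher, or 40.8% called in either direction. Over all tested features 23.2% were lower and 24.8% higher. In the lower hosts 32 of 53 members had a log2 fold change below 0, with a median of -0.24 against -0.47 for their hosts. In the hosts that did not pass, 57 of 73 members were above 0, with a median of 0.29 against -0.08 for their hosts. SNHG7 had the largest fall of the hosts and is named after its values were seen: it measured 3219 and 3627 in siCtrl and 1519 to 1656 in the siSFPQ libraries (log2 fold change -1.09, SE 0.10, limma adjusted p = 1.0e-05). Its members SNORA17A and SNORA17B, the latter present as 2 rows over one RefSeq span, had log2 fold changes of -0.79 to -0.74 and did not pass.

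The ratio of snoRNA to host was tested over 1217 nested pairs of any biotype, 128 of them snoRNA pairs whose host is at least 1000 bases longer. The ratio was higher for 4 snoRNA pairs and lower for none; 26 and 1 pairs had an unadjusted p under 0.05. The 4 are 3.12% of the snoRNA pairs, where 7.97% of all pairs were higher and 7.15% lower. The 4 include SNORD14B, which passed the filter only through siSFPQ libraries. The median change of the ratio over the snoRNA pairs was 0.34 on the log2 scale, above 0 in 104 of 128. It was 0.02 over all pairs, -0.01 over the 1089 pairs of other biotypes and -0.07 over 98 microRNA pairs. Members that passed the filter only through siSFPQ libraries are among the snoRNA pairs, so the count above 0 is no support for a direction. The snoRNA median was 0.25 over 280 pairs with no filter on level, where no pair passed. It turned to -0.058 over the 9 pairs left by a filter at 50. No pair passed without either siCtrl library, and without siSFPQ-3 replicate 1 the median was 0.21.

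SNORA74A had the ratio change with the lowest adjusted p. On the log2 scale it stood at -6.06 and -6.00 relative to SNHG4 in siCtrl, at -5.02 and -4.89 with siSFPQ-2, and at -5.14 and -5.03 with siSFPQ-3, a rise of 1.01 (SE 0.12, limma adjusted p = 0.015). The groups did not overlap and the libraries within a group were close. The ratio fit had no trend with level, so at such low levels its SE may be too small. The SE of SNORA74A itself was 0.30 in the main fit. SNHG4 itself measured 811 and 916 in siCtrl and 724 to 1122 in the siSFPQ libraries. SNORA21 rose by 0.84 against RPL23 (SE 0.16, limma adjusted p = 0.036) and SNORA61 by 0.90 against SNHG12 (SE 0.20, limma adjusted p = 0.047). In the main fit the SE of SNORA21 itself was 0.31 and that of SNORA61 was 0.37. SNORD14B rose by 2.93 against RPS13 (SE 0.53, limma adjusted p = 0.031). SNORD14B passed the filter only through siSFPQ libraries, so its own rise decided that the pair was tested and this call is a description. The SNORA21 change was 0.40 with siSFPQ-2 and 1.29 with siSFPQ-3, and the difference between the siRNAs was not tested for the ratio.

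**Figure D5:**
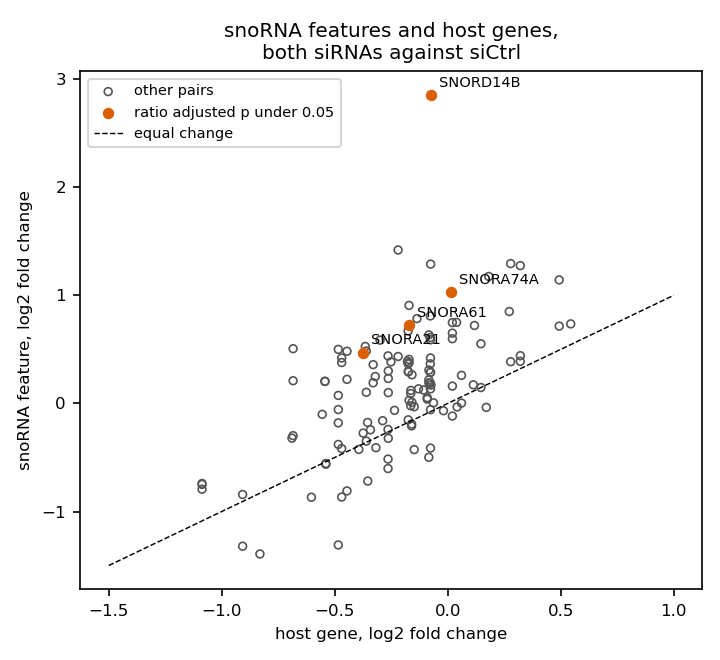
Log2 fold change of the host gene against that of the snoRNA feature, both siRNAs against siCtrl, for 128 pairs; the dashed line marks equal change and filled points have a ratio with an adjusted p under 0.05. Of the pairs 104 lie above the line, and some of their members passed the filter only through siSFPQ libraries.

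Members of one host did not all move alike. SNHG1 holds 6 members, all box C/D. Those other than SNORD25 had log2 fold changes from -0.38 (SNORD28) to 0.50 (SNORD30) and did not pass. SNORD22 measured 21.5 and 25.5 after siCtrl, 13.4 and 11.1 after siSFPQ-2, and 74.2 and 22.3 after siSFPQ-3, so the siSFPQ-3 replicates lay far apart. SNORD26 was below both controls in both siSFPQ-2 libraries (at most 16.6 against 19.9 and 22.2) and above them with siSFPQ-3 (35.5 and 25.3). SNORD27 measured 13.5 and 6.65 after siCtrl, 4.46 and 4.43 after siSFPQ-2, and 18.3 and 12.2 after siSFPQ-3.

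The host with the most members was TAF1D, a subunit gene of the RNA polymerase I factor SL1. Its 7 members (SNORA1, SNORA8, SNORA18, SNORA25, SNORA32, SNORA40 and SNORD6) had log2 fold changes from -0.41 to 0.59 and none passed; TAF1D was at -0.08 (SE 0.10). In EIF4A2, a translation initiation factor gene, 4 of 5 members were above 0: beside SNORA81, SNORA63 was at 0.65 and SNORA4 at 0.60, which did not pass, SNORA63B was at 0.16, and SNORD2 was at -0.12. All 5 rows in SNHG12 were above 0, from 0.03 (SNORD99) to 0.91 (SNORA44), 2 of them being SNORA16A rows over one span. RPL23A, RPL13A and SNHG17 held 4 members each. In RPL23A (SNORD4A, SNORD4B, SNORD42A and SNORD42B) all 4 were above 0, from 0.19 to 0.81. In RPL13A (SNORD32A, SNORD33, SNORD34 and SNORD35A) they ran from -0.32 to 0.30. In SNHG17 the paralogues SNORA71A, SNORA71B and SNORA71C were at -0.60, -0.24 and -0.52 and SNORA71D was at 0.44. None of these passed except SNORA81, SNORA44 and SNORD25.

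Box C/D and box H/ACA members had medians near 0. The median log2 fold change was 0.08 over 74 SNORD and 0.18 over 66 SNORA features, against -0.02 over all features. Of the SNORD features 5 were higher and 8 lower, or 6.76% and 10.8%. Of the SNORA features 4 were higher and 4 lower, or 6.06% each. Over all tested features 24.8% were higher and 23.2% lower. Relative to siCtrl the SNORD median was -0.19 and -0.02 in the siSFPQ-2 libraries and 0.49 and 0.12 in the siSFPQ-3 libraries. The SNORA medians were -0.01, 0.13, 0.24 and 0.20. siSFPQ-3 replicate 1 stood apart for the SNORD features, and without it the SNORD median was 0.01. SCARNA12, a Cajal body RNA, measured 15.9 and 19.9 in siCtrl and 13.3 to 18.2 in the siSFPQ libraries (log2 fold change -0.16, SE 0.30, limma adjusted p = 0.69).

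Each siRNA alone gave fewer rises. With siSFPQ-2, 2 members were higher and 14 lower, beside 21.2% and 17.9% of all features. With siSFPQ-3, 7 were higher and 10 lower, beside 23% and 20.4%. These 2 comparisons share the siCtrl libraries. Between the siRNAs no member passed by limma, edgeR or DESeq2, where 0.0781% of all features were higher and 0.023% lower with siSFPQ-3. At an unadjusted p under 0.05, 12 of 74 SNORD were higher with siSFPQ-3 and none lower, against 7.57% and 4.91% of all features. Without siSFPQ-3 replicate 1 this was 2 of 74.

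Genes for the proteins that bind and process snoRNAs were read against the shares over all features, 24.8% higher and 23.2% lower. Of 5 box C/D core protein genes 3 were lower and none higher. FBL, the methyltransferase of box C/D particles, measured 378 and 414 after siCtrl, 209 and 161 after siSFPQ-2, and 207 and 215 after siSFPQ-3 (log2 fold change -1.01, SE 0.14, limma adjusted p = 0.00021). NOP56, a core scaffold protein, fell by 0.45 (SE 0.09, limma adjusted p = 0.0029). Of 4 box H/ACA core genes 2 were lower: DKC1, the pseudouridine synthase, fell by 0.54 (SE 0.10) and NHP2 by 0.46 (SE 0.15), with limma adjusted p = 0.0018 and 0.024. The median log2 fold changes of the 2 lists were -0.37 and -0.31, against -0.02 over all features.

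Among 10 tested assembly factor genes 2 rose, SHQ1 (0.56, SE 0.11), a chaperone of DKC1, and ZNHIT6 (0.29, SE 0.10), and 2 fell, RUVBL2 (-0.30, SE 0.10) and ZNHIT3 (-0.49, SE 0.17). Among 20 genes of snoRNA end processing and turnover 5 rose and 8 fell. XRN2, the nuclear exonuclease that trims 5′ ends, rose by 0.62 (SE 0.10) and TENT4B, which adds short tails for exosome decay, by 0.53 (SE 0.11). EXOSC4 and EXOSC9, subunits of the exosome that trims 3′ ends, fell by 0.84 (SE 0.11) and 0.63 (SE 0.12). Of 9 trafficking, cap and Cajal body genes TCOF1 (-0.35, SE 0.11) and NOLC1 (-0.40, SE 0.14) were lower. Of 10 factors for promoters of the small nuclear RNA type, POU2F1 (0.79, SE 0.10) and ELL (0.56, SE 0.11) were higher and ZNF143 (-0.34, SE 0.09) and SNAPC5 (-0.37, SE 0.13) lower. Of 17 ribosomal RNA processing genes 5 were lower and none higher, among them IMP3, a protein of the U3 particle (-0.84, SE 0.11), and NCL, nucleolin (-0.54, SE 0.09). NCL is also the host of SNORA75 and SNORD20, and NOP56 that of SNORD57, SNORD86 and SNORA51. In total 9 of 75 tested genes of the 7 lists were higher and 24 lower, or 12% and 32%, beside 24.8% and 23.2% of all features. Those shares are from the fit of all 6 libraries. Shares over all features without 1 library are not given here, so the counts below do not compare these genes with features at large. Without siCtrl replicate 1 the 24 became 11, and without siCtrl replicate 2 they became 7.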

How the data were processed

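PRO-seq was run on 6 SBC-3 libraries, 2 for each of 3 siRNAs. The authors deposited 1 table of normalised reads per feature (a signal per library: gene counts divided by size factors, as whole reads came out of 100% of values), beside their own log2 fold changes, fold ratios, test score and p-values for siSFPQ against siCtrl. Only the authors' log2 values and adjusted p-values were used from that comparison. UMI-tools, DESeq2 1.38.1, SAMtools 1.3.1, Bowtie2 and cutadapt 1.14 are named, with builds hg38 and dm6, per the submitters' processing notes; the role of each is not given in those notes as used here. Repeated rows of an identifier were dropped (240), leaving 25827 features. Counting error falls with depth, and with 12072813 to 18475158 reads per library a feature near the filter rests on about 10 reads. The counting interval covers counting error only.

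Features that reached 10 in 2 or more libraries entered limma 3.58.1 (R 4.3.3; lmFit, eBayes with trend), run on log2(value + 1), 1 fit of the 3 groups, Benjamini-Hochberg over 21773 features; fold changes are on that scale and understate changes of low features. "Both siRNAs" averages siSFPQ-2 and siSFPQ-3 before siCtrl is subtracted. Recovered whole reads were also tested with edgeR 4.0.16 (quasi-likelihood, TMM), which called 5521 features higher and 5010 lower, and with DESeq2 1.42.0. Scripts were tested on simulated data. Positions come from RefSeq (GRCh38.p14) by symbol, for 141 of 153 members. A host is the shortest tested feature that contains the span, is no small RNA and is at least 1000 bases longer (100 for descriptions of hosts). The snoRNA strand was not used, since no table gave it, so antisense hosts and antisense reads cannot be told apart. Named were the own-promoter snoRNAs; the 10 largest called rises and falls at or above the members' median level, with the siSFPQ libraries on one side of siCtrl; the 5 best covered; all members of the 6 hosts with most members, ties kept, of which 1 host is not reported here; up to 2 genes per list and direction; called host ratios; and called SCARNA. The members, lists and rules were chosen with earlier results of these data known. The replicate number was not used to pair samples in the main fit. Deviations of same-numbered libraries correlated at 0.0529 (siCtrl with siSFPQ-2), 0.0587 (siCtrl with siSFPQ-3) and 0.382 (siSFPQ-2 with siSFPQ-3) over 2 numbers. Whether same-numbered siSFPQ libraries share a batch was not tested, and the pooled contrast treats the siSFPQ libraries as independent. Alternatives were other pseudocounts (0.1, 5), filters, scalings and tools, no trend, a replicate block and leaving out each library. The profile tables of the series were not used here.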

Additional observations from a re-analysis of the deposited data

How the results depend on the processing

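The falls were the steadier result: the count of members lower with both siRNAs, 14, stayed within 13 to 19 under every change of pseudocount, scaling, tool, trend and block, was 11 with a filter at 50, and was 8 to 16 without 1 library, the lowest without siCtrl replicate 2. The 9 rises were less steady: 14 of 407 features with no filter, 1 with a filter at 50, 2 with DESeq2 and 3 to 8 without 1 library. DESeq2 shared 2 of the rises and 13 of the falls, and edgeR 7 and 14. With siSFPQ-2 alone the 2 rises became 6 with no filter, 1 with a filter at 50, 7 with no trend and 1 with the mean filter, and 1 to 4 without 1 library; its 14 falls became 7 to 17. With siSFPQ-3 alone the 7 rises became 15 with no filter, 1 with a filter at 50, 2 with DESeq2 and 17 with no trend, and 3 to 11 without 1 library; its 10 falls became 2 to 14, the lowest without siCtrl replicate 1. Between the siRNAs 0 to 1 member was higher without 1 library. The cause of these changes was not tested. Shares over all features under the alternatives are not given here except for edgeR, so these counts compare settings and not snoRNAs with features at large. Only the best covered features are left by a filter at 50, and the medians were then -0.55 for SNORD, -0.12 for SNORA and -0.058 for the host ratio. The 4 ratio rises became 0 with no filter, 1 with a filter at 50 and 0 to 3 without 1 library; without 1 library 0 to 1 ratio was lower. The 24 lower genes of the protein lists became 7 to 27 without 1 library. With the replicate number as a block, where the labels give only a shared number, the rises were 4 with siSFPQ-2 and 11 with siSFPQ-3. Under the block 1 member was higher with siSFPQ-3 than with siSFPQ-2. The other counts under the block stayed within 1.5 times. Of the called members SNORD3B-1, SNORD3B-2, SNORD3C, SNORA57, SNORD25 and SNORD14B kept the call without each library in turn. The SNORD3 features among them are copies of U3 and not independent, and SNORD14B passed the filter only through siSFPQ libraries. Of the values of named features under alternatives, 1457 kept direction and side of the threshold, 131 lost a call, 7 gained one and 0 called values changed sign. For the ratio, DESeq2 and edgeR were not run, and its main fit already had no trend. Depth limits the precision: the median standard error of a member was 0.35, against 0.14 over all features.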
